A study of Arabidopsis thaliana with 12 samples.

Results

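The values of 10 nuclear genes of photosynthesis were followed in root RNA of Arabidopsis thaliana: RCA (AT2G39730), PRK (AT1G32060), LHCB4.1 (AT5G01530), LHCB4.2 (AT3G08940), LHCB4.3 (AT2G40100), PSBY (AT1G67740), PSBW (AT2G30570), PSB27 (AT1G03600), PSAN (AT5G64040) and PSAE-1 (AT4G28750). They were chosen by name from the probe sets annotated with a single gene, and all 10 of the 13356 genes annotated in this way had 1 probe set each. The study compared wild-type Ws roots with roots of afb3-1, a mutant of the auxin receptor AFB3, each treated for 2 h with 5 mM KNO3 or with 5 mM KCl as control. The 4 groups of 3 arrays are called Ws KCl, Ws KNO3, afb3-1 KCl and afb3-1 KNO3. Seedlings of both genotypes had grown for 14 days in hydroponics with 3 mM sucrose, on ammonium succinate at 0.5 mM as their nitrogen, under 16 h of light and 8 h of dark, and were treated on day 15 as the light came on. Whole roots were taken, so every array averaged all root cell types, and the mutant was represented by 1 allele. The labels describe the 3 replicates as independent biological ones. AFB3 was not analysed here because none of the named probe sets was annotated with it, so the genotype labels were not checked on the arrays.

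The genes encode parts of the machinery that plastids use to capture light and fix carbon. LHCB4.1, LHCB4.2 and LHCB4.3 encode forms of CP29, a minor chlorophyll-binding antenna protein that sits between the light-harvesting trimers and the core of photosystem II. PSBY and PSBW are small membrane subunits of photosystem II, and PSB27 is a lumenal protein that helps to assemble and repair it. PSAN lies on the lumenal face of photosystem I and PSAE on its stromal face, near where ferredoxin takes up electrons. RCA encodes Rubisco activase, which frees Rubisco of inhibitory sugar phosphates, and PRK encodes phosphoribulokinase, which makes the acceptor of CO2 in the Calvin-Benson cycle. Roots mostly hold non-green plastids, and root cells that are lit can form chloroplasts and express such genes.

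Values are log2 signals of the deposited arrays, and 1 unit is a 2-fold difference. The medians of the 12 arrays ran from 3.78 to 3.93, and arrays of a group correlated with each other by at least 0.973 over 22746 probe sets. As means over the 12 arrays, all 10 genes lay above 2.32, a level that 66.7% of probe sets exceeded, although PRK and LHCB4.2 lay below it on some arrays. Named probe sets were there for 3 of 20 root markers: PYK10, a root beta-glucosidase, was bright on every array, from 10.13 to 11.15, and the root-hair expansins EXPA7 and EXPA18 ranged from 4.43 to 6.10 and from 4.75 to 6.24. Of 14 shoot markers, 4 had one. The stomatal regulators SPCH, MUTE and FAMA and the leaf-polarity gene YAB3 stayed between 1.18 and 2.19, each below that level on all 12 arrays. The summed signal of the shoot markers was 11.6 to 12.8 in Ws KCl, 10.3 to 12.1 in Ws KNO3, 11.2 to 13.7 in afb3-1 KCl and 10.7 to 12.2 in afb3-1 KNO3. That of the root markers was 1646 to 2240, 1574 to 2183, 1212 to 2357 and 1400 to 2151 in the same order. The sums are of signals before the log, so the root sum was almost wholly PYK10 and says little of the 2 expansins.

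The 10 genes varied between replicates of a group far more than most probe sets. Their median within-group SD was 0.69, against 0.19 over all probe sets, and each lay above the 95th percentile of that SD. Without replicate 3 of afb3-1 KCl the median was 0.46, against 0.19 over all probe sets, and 4 of 10 lay above that percentile (LHCB4.2 changed most, from 0.65 to 0.30). All 10 were highest on the same array, replicate 3 of afb3-1 KCl, and 9 of 10 were lowest on a Ws KNO3 array. In bulk RNA of whole roots, fewer cells that express these genes and less RNA of them per cell cannot be told apart.

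**Figure D1:**
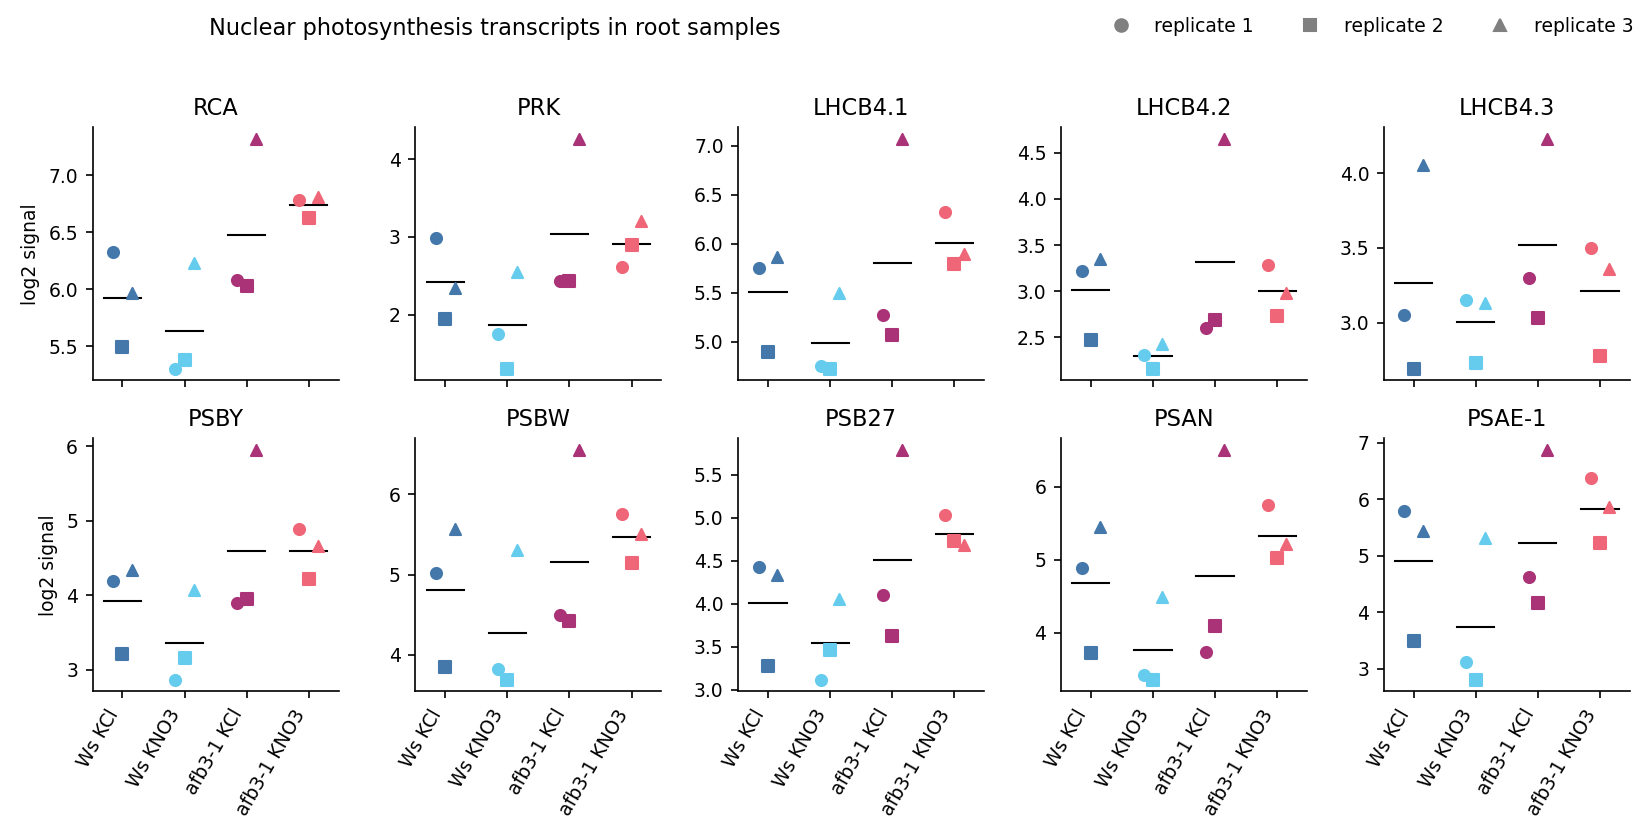
Log2 signal of each of the 10 genes on each of the 12 arrays, by group, with a marker shape for each replicate number and a bar for the group mean. The points of afb3-1 KCl replicate 3 top every panel, and the afb3-1 KNO3 points lie closest together for RCA, with an SD of 0.10.

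The carbon-fixation genes differed in how tightly replicates lay together. RCA was at 6.32, 5.49 and 5.97 in Ws KCl replicates 1 to 3, 5.30, 5.38 and 6.23 in Ws KNO3, 6.08, 6.03 and 7.32 in afb3-1 KCl, and 6.78, 6.62 and 6.81 in afb3-1 KNO3. Its afb3-1 KNO3 arrays lay together above all 6 Ws arrays. PRK was at 2.98, 1.95 and 2.35 in Ws KCl, 1.75, 1.31 and 2.56 in Ws KNO3, 2.43, 2.43 and 4.26 in afb3-1 KCl, and 2.61, 2.89 and 3.21 in afb3-1 KNO3. Replicate 3 of afb3-1 KCl stood clear of the other 11 arrays for PRK.

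The CP29 genes shared the high array but not the rest of the pattern. LHCB4.1 was at 5.76, 4.90 and 5.87 in Ws KCl, 4.75, 4.73 and 5.49 in Ws KNO3, 5.27, 5.07 and 7.07 in afb3-1 KCl, and 6.33, 5.79 and 5.89 in afb3-1 KNO3. LHCB4.2 was at 3.22, 2.48 and 3.35, then 2.31, 2.16 and 2.43, then 2.60, 2.69 and 4.65, then 3.28, 2.73 and 2.98 in the same order of groups. For both genes the Ws KNO3 arrays lay below all afb3-1 KNO3 arrays. LHCB4.3 was at 3.05, 2.69 and 4.05, then 3.15, 2.73 and 3.13, then 3.30, 3.03 and 4.23, then 3.50, 2.78 and 3.36. All 4 groups of LHCB4.3 overlapped, and its second highest array was Ws KCl replicate 3.

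The photosystem II genes ran close together. PSBY was at 4.2, 3.22 and 4.34 in Ws KCl, 2.86, 3.15 and 4.07 in Ws KNO3, 3.90, 3.95 and 5.95 in afb3-1 KCl, and 4.89, 4.21 and 4.67 in afb3-1 KNO3. PSBW was at 5.01, 3.85 and 5.57, then 3.83, 3.68 and 5.31, then 4.49, 4.42 and 6.56, then 5.75, 5.14 and 5.51. PSB27 was at 4.43, 3.28 and 4.33, then 3.12, 3.46 and 4.05, then 4.1, 3.63 and 5.79, then 5.03, 4.73 and 4.68. In each of these genes, replicate 3 was the highest Ws KNO3 array, and for PSBW it reached into the afb3-1 KNO3 range.

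The photosystem I genes moved furthest. PSAN was at 4.89, 3.72 and 5.45 in Ws KCl, 3.43, 3.36 and 4.49 in Ws KNO3, 3.74, 4.1 and 6.51 in afb3-1 KCl, and 5.75, 5.03 and 5.22 in afb3-1 KNO3. PSAE-1 was at 5.79, 3.49 and 5.43, then 3.12, 2.80 and 5.31, then 4.62, 4.16 and 6.87, then 6.38, 5.22 and 5.86. The highest PSAE-1 array was 16.8-fold above the lowest, against 8.90-fold for PSAN and 2.90-fold for LHCB4.3. The within-group SD of PSAE-1 was 1.21, at the 99.8th percentile of all probe sets, while RCA, with 0.50, stood at the 95.1st.

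Averaged over the 10 genes after each was centred on its own mean, the arrays spanned 6.27-fold. Replicate 3 of afb3-1 KCl stood at 1.59, followed by afb3-1 KNO3 replicates 1 and 3 at 0.70 and 0.49 and Ws KCl replicates 3 and 1 at 0.34 and 0.23. Replicate 2 of afb3-1 KNO3 was at 0.18 and Ws KNO3 replicate 3 at −0.02. Below them lay afb3-1 KCl replicates 1 and 2 at −0.28 and −0.38, Ws KCl replicate 2 at −0.83, and Ws KNO3 replicates 1 and 2 at −0.97 and −1.06. The other 2 arrays of afb3-1 KCl thus ranked below 2 of the 3 Ws KCl arrays. As group means, the average was 0.46 ± 0.26 (SD, n = 3) in afb3-1 KNO3, 0.31 ± 1.11 in afb3-1 KCl, −0.08 ± 0.64 in Ws KCl and −0.68 ± 0.57 in Ws KNO3. Ws KNO3 was the lowest group for all 10 genes. The highest was afb3-1 KNO3 for 6 genes and afb3-1 KCl for PRK, LHCB4.2, LHCB4.3 and PSBY.

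**Figure D2:**
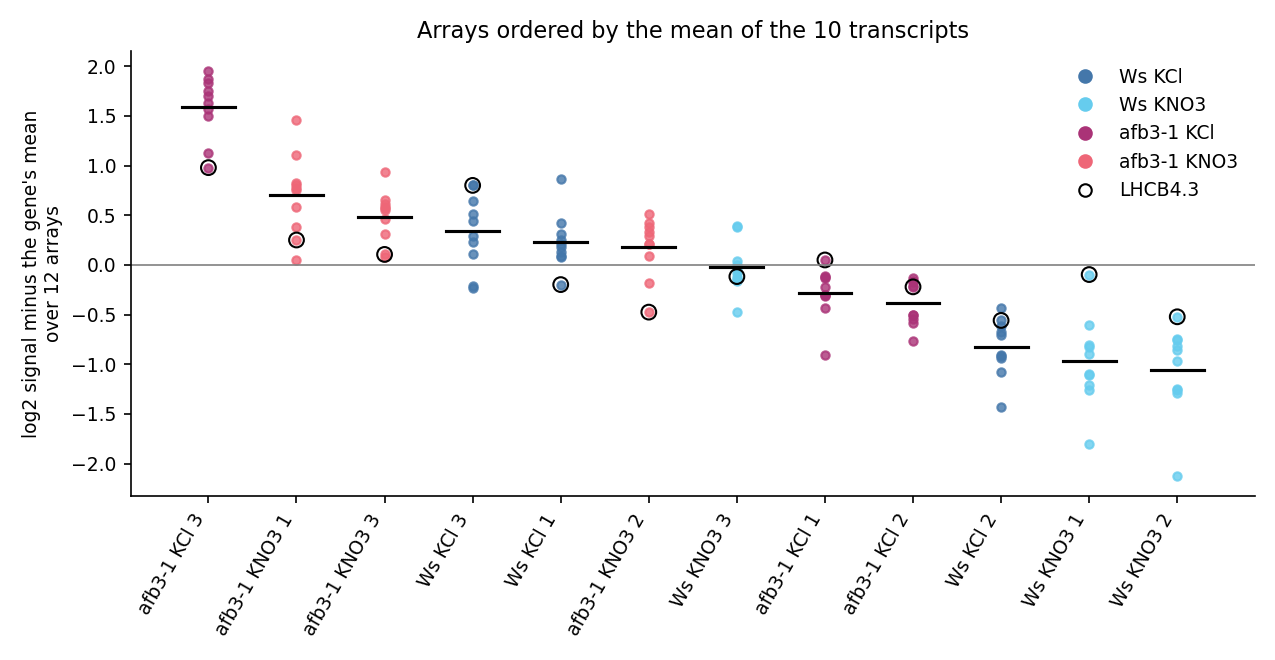
Mean centred log2 signal of the 10 genes on each array, in order, with a bar for the mean, a point for each gene, open circles for LHCB4.3 and colours for the 4 groups. Replicate 3 of afb3-1 KCl is the highest array at 1.59, and Ws KNO3 replicates 1 and 2 are the lowest at −0.97 and −1.06.

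Several array measures were set beside this average. The shoot marker mean was also highest on afb3-1 KCl replicate 3, at 1.75, and SPCH (1.74) and YAB3 (2.11) were at their highest there, while MUTE (1.45) and FAMA (1.72) were not. Its Pearson r with the average of the 10 genes was 0.52 over the 12 arrays and 0.12 without that array. Of the root markers, PYK10 was at its lowest there, at 10.13, whereas EXPA7 (5.31) and EXPA18 (5.73) lay above their means of 5.22 and 5.58. The actin, GAPDH and ubiquitin controls, read near the 3′ and 5′ ends of their transcripts as a measure of RNA integrity, differed between the ends by 0.57 to 0.93, with 0.78 on that array and r = 0.39 with the average. The part of these measures in the spread of the 10 genes was not tested.

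The genes were high and low together from array to array. Over the 45 pairs of genes, Pearson r across the 12 arrays ran from 0.55 to 0.98 with a median of 0.913, and Spearman rho had a median of 0.874. On deviations from the group means the median r was 0.915, so the likeness did not rest on the group means. Without the 2 arrays farthest from the median, afb3-1 KCl replicate 3 and Ws KNO3 replicate 2, the median r over 10 arrays was 0.829. The first principal component of the 10 genes held 92.1% of their variance, and 90.6% without afb3-1 KCl replicate 3. The same arrays, RNA extracts and normalization enter both genes of a pair, so these r values describe the arrays and carry no test.

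**Figure D3:**
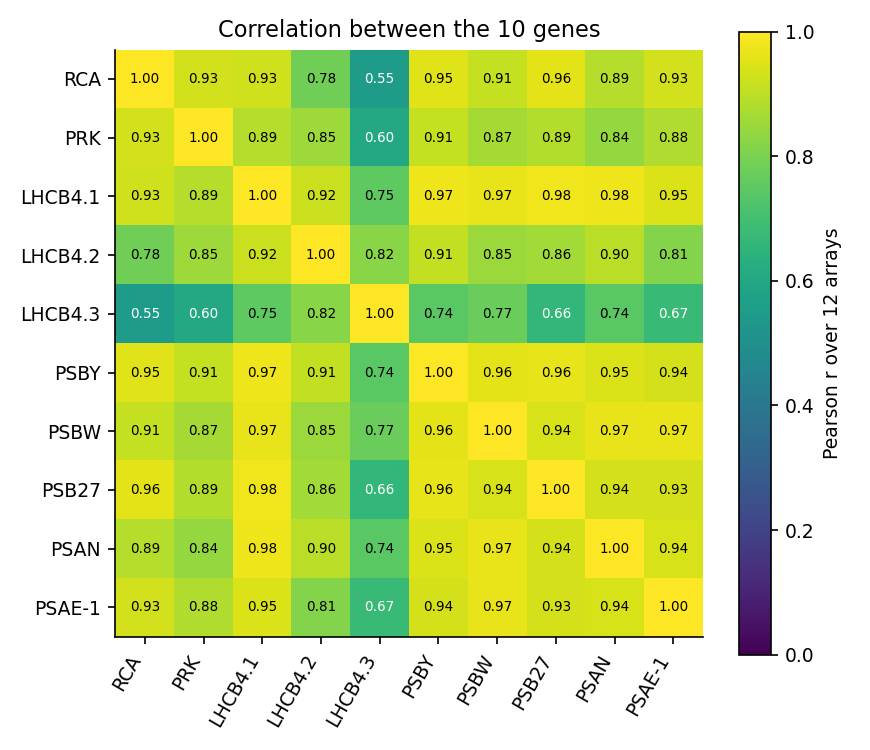
Pearson r between each pair of the 10 genes over the 12 arrays. All pairs are between 0.55 and 0.98, and the lowest values are in the row of LHCB4.3.

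LHCB4.1 followed the other 9 genes most closely, with r = 0.990 against their mean, then PSBY (0.982), PSBW (0.975), PSAN (0.965), PSB27 (0.964), PSAE-1 (0.952), RCA (0.936), PRK (0.903) and LHCB4.2 (0.897). LHCB4.3 was the least alike, with r = 0.731, and with r = 0.449 once the 2 farthest arrays were left out. Its pairs ranged from 0.55 to 0.82, while every pair among the other 9 genes reached at least 0.78. The genes also differed in how far they moved for a given shift of the rest. Per log2 unit of the mean of the other 9, PSAE-1 moved by 1.74 and PSAN by 1.30, whereas RCA moved by 0.74 and LHCB4.3 by 0.44.

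Whether the genotypes differed after nitrate was the comparison in which the genes stood furthest apart. All 10 had a higher mean in afb3-1 KNO3 than in Ws KNO3, by 0.21 to 2.07 log2 units with a median of 1.15, or 2.22-fold, while the median over all probe sets was 0.01. None of these differences passed the threshold: the adjusted p in limma, over 22746 probe sets, was 1.00 for each gene, and 0% of all probe sets passed. The 2 groups did not overlap, with afb3-1 higher, for 7 of the 10 genes, RCA, PRK, LHCB4.1, LHCB4.2, PSBY, PSB27 and PSAN. The share of all probe sets with this separation was 5.41%. At an unadjusted limma p under 0.05 there were 5 of 10 genes (RCA, PSBY, PSB27, PSAN and PSAE-1), against 1.59% of all probe sets. The count depended on single arrays. It was 1 when Ws KNO3 replicate 1, Ws KNO3 replicate 2 or afb3-1 KNO3 replicate 1 was left out, and 2 without afb3-1 KNO3 replicate 3. It was 8 without Ws KNO3 replicate 3 and 9 without afb3-1 KCl replicate 3. The latter array is outside this comparison and enters it only through the estimate of the spread shared by all groups. The share of all probe sets at that p is not given for fits without 1 array, so those counts have no baseline. With the replicate number as a block within each treatment the count was 9 of 10 against 4.16% of all probe sets. The adjusted limma p of the 10 genes then ran from 0.319 to 0.709. The 10 genes rose and fell together, with a median r of 0.913 between pairs, so they are not 10 separate observations. They were also chosen with earlier results of these data known.

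RCA had the smallest SE of the 10, and its mean was 6.74 ± 0.10 in afb3-1 KNO3 against 5.64 ± 0.52 in Ws KNO3 (SD, n = 3). The difference was 1.10 with SE 0.35 and a 95% interval of 0.33 to 1.87 (limma, unadjusted p = 0.00933). PRK was at 2.91 ± 0.30 against 1.87 ± 0.63, a difference of 1.03 whose interval of −0.02 to 2.09 held 0. The means of the carbon-fixation genes were thus 2.15-fold (RCA) and 2.05-fold (PRK) apart, with an adjusted p of 1.00 in limma. SEs and intervals rest on the spread within all 4 groups, so arrays in KCl enter them too. For PRK the within-group SD was 0.69, and 0.47 without afb3-1 KCl replicate 3.

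Photosystem I genes had the widest gap and the widest error. PSAE-1 averaged 5.82 ± 0.58 in afb3-1 KNO3 and 3.74 ± 1.37 in Ws KNO3, a difference of 2.07 with SE 0.84 and an interval of 0.23 to 3.92. PSAN averaged 5.33 ± 0.37 and 3.76 ± 0.64, a difference of 1.57 with SE 0.66. The PSAE-1 groups overlapped because Ws KNO3 replicate 3, at 5.31, lay above afb3-1 KNO3 replicate 2, at 5.22.

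Within photosystem II the core and assembly genes differed by like amounts. PSB27 was higher by 1.27 (SE 0.49), PSBY by 1.23 (SE 0.53) and PSBW by 1.19 (SE 0.62). Among the CP29 genes the differences were 1.01 (SE 0.47) for LHCB4.1, 0.70 (SE 0.45) for LHCB4.2 and 0.21 (SE 0.37) for LHCB4.3. The interval of LHCB4.3 ran from −0.61 to 1.02, so a difference as large as that of LHCB4.1 lay just inside it.

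Arrays of the same replicate number showed how the gap varied. In KNO3, afb3-1 minus Ws was above 0 for 10 of 10 genes in each of replicates 1, 2 and 3, with medians of 1.75, 1.26 and 0.57. PSAE-1 differed by 3.26, 2.42 and 0.55, and RCA by 1.48, 1.25 and 0.58. In both genes the gap was smallest in replicate 3, whose Ws KNO3 array was the highest of its group. LHCB4.3 differed by 0.35, 0.05 and 0.22.

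In KCl the genotypes were not told apart. The mean of every gene was higher in afb3-1, by 0.09 (PSAN) to 0.68 (PSBY) with a median of 0.33, and the adjusted limma p was 1.00 for all 10. No gene passed an unadjusted p under 0.05 or separated the groups, against 2.65% and 6.85% of all probe sets, and 0% of all probe sets passed after adjustment. This direction depended on single arrays. Without afb3-1 KCl replicate 3, 7 of 10 genes were lower in afb3-1, with a median of −0.24, and without Ws KCl replicate 2 they split 5 and 5 around a median of 0.01. Without any 1 of the other 4 KCl arrays the median was 0.57 to 0.75. By replicate number, 1 of 10 genes (LHCB4.3) was higher in afb3-1 in replicate 1, and 10 of 10 in replicates 2 and 3, with medians of −0.50, 0.43 and 1.33.

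**Figure D4:**
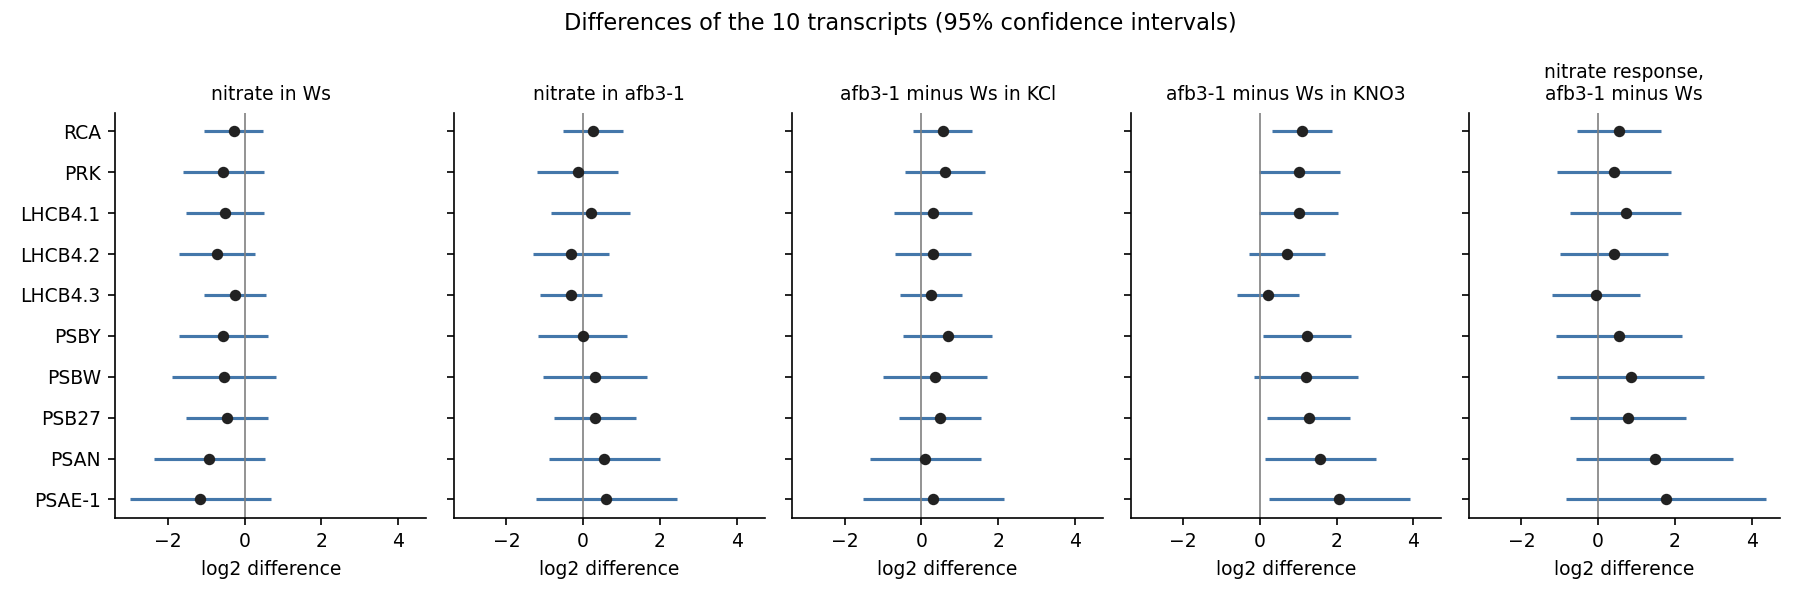
Log2 difference of each of the 10 genes in each of the 5 comparisons, with 95% intervals from limma. All 10 points are above 0 for afb3-1 minus Ws in KNO3, where the intervals of RCA, PSBY, PSB27, PSAN and PSAE-1 leave out 0, and no gene passed after adjustment in any comparison.

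Nitrate in Ws roots left all 10 genes with a lower mean, and none passed the threshold. The differences of KNO3 minus KCl ran from −0.26 (LHCB4.3) to −1.16 (PSAE-1) with a median of −0.55, against −0.03 over all probe sets, and the adjusted limma p ran from 0.573 to 0.831. In that comparison 658 probe sets passed, or 2.89%. LHCB4.2 was the 1 gene whose groups did not overlap, from 3.02 ± 0.47 in KCl to 2.30 ± 0.14 in KNO3 (limma, adjusted p = 0.573), while 17.3% of all probe sets were separated in either direction. No gene had an unadjusted p under 0.05, against 13.3% of all probe sets. The photosystem I genes again had the largest sizes and errors, −1.16 (SE 0.84) for PSAE-1 and −0.93 (SE 0.66) for PSAN. The median was −0.34 without Ws KCl replicate 3, where LHCB4.3 turned to 0.13, −0.87 without Ws KCl replicate 2 and −0.84 without Ws KNO3 replicate 3.

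Nitrate in afb3-1 roots gave no common direction. KNO3 minus KCl was above 0 for 6 genes and below 0 for 4 (PRK, LHCB4.2, LHCB4.3 and PSBY), with a median of 0.23 and adjusted limma p from 0.880 to 0.999. Of all probe sets 2.76% passed the threshold, 11.1% had an unadjusted p under 0.05 and 17% had separate groups, and none of the 10 genes met any of these. PSAE-1 differed by 0.60, PSAN by 0.55, RCA by 0.26 and LHCB4.2 by −0.32. Without afb3-1 KCl replicate 3 all 10 were above 0, by 0.05 to 1.43 with a median of 0.76, and the smallest adjusted p was 0.216. Without afb3-1 KCl replicate 1 or 2 the median was −0.05 or −0.15, and without afb3-1 KNO3 replicate 1 it was 0.10.

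The nitrate responses of the genotypes were not shown to differ. The response in afb3-1 minus that in Ws was above 0 for 9 of 10 genes, all but LHCB4.3 (−0.05), with a median of 0.63 and an adjusted limma p of 0.999 for each. No gene had an unadjusted p under 0.05, against 2.92% of all probe sets, and 0% of all probe sets passed after adjustment. The estimates were largest for PSAE-1, at 1.76 with an interval of −0.84 to 4.36, and for PSAN, at 1.48 with an interval of −0.56 to 3.52. Without afb3-1 KCl replicate 3 the median was 1.28 and the smallest adjusted p 0.747, and without Ws KCl replicate 2 the median was 0.96. Without afb3-1 KCl replicate 1 or 2 it was 0.40 or 0.33. The nitrate and genotype comparisons share groups of arrays, so a high or low array enters several of them.

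Few other listed nuclear genes of photosynthesis had a probe set annotated with a single gene, so most could not be followed. Lists of 107 nuclear genes of the antennae, photosystems, electron transport, carbon fixation, chlorophyll synthesis, photorespiration and their regulators held 10 with a named probe set. In each of the 5 comparisons 0 of these 10 rose and 0 fell past the threshold in limma. At an unadjusted p under 0.05 there were 3 for genotype in KNO3 (ATPC1, HPR1 and PORB, all higher in afb3-1, against 1.59% of all probe sets), 1 for nitrate in afb3-1 (AT1G11860, against 11.1%) and 0 in the other comparisons. Some followed the 10 genes closely. SBPASE, the sedoheptulose-bisphosphatase of the Calvin-Benson cycle, had r = 0.968 with their average, HPR1, the peroxisomal hydroxypyruvate reductase of photorespiration, r = 0.921, and ATPC1, the gamma subunit of the plastid ATP synthase, r = 0.877. CHLI2 (0.756) and PORB (0.702) of chlorophyll synthesis were less alike, and CHLM was at 0.536. PGK2, GSA1, PGRL1B and AT1G11860, a gene listed with photorespiration, lay between 0.166 and 0.251.

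ATPC1 had the smallest p of the 10 for genotype in KNO3. It was at 5.32, 4.89 and 5.09 in Ws KCl, 4.38, 4.37 and 5.21 in Ws KNO3, 4.88, 5.23 and 5.99 in afb3-1 KCl, and 5.62, 5.88 and 5.45 in afb3-1 KNO3. The KNO3 groups did not overlap, with afb3-1 higher, as in 5.41% of all probe sets. The difference was 1.00 with SE 0.29 (limma, unadjusted p = 0.0054, adjusted p = 1.00). HPR1 was at 2.47, 1.90 and 3.03 in Ws KNO3 and 3.53, 3.76 and 3.45 in afb3-1 KNO3, a difference of 1.12 with SE 0.39. SBPASE differed by 0.85 (SE 0.41), PORB, a protochlorophyllide reductase, by 0.60 (SE 0.22), and CHLM by 0.36 (SE 0.21). PGRL1B (0.12), PGK2 (−0.0048) and AT1G11860 (−0.07) were near 0. Over the 10 list genes the median was 0.26, with 7 above 0.

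The list genes were also compared by treatment and in KCl. After nitrate in Ws, ATPC1 differed by −0.45 (SE 0.29), PORB by −0.41 (SE 0.22), CHLI2 by −0.19 (SE 0.16), AT1G11860 by −0.27 (SE 0.20) and PGK2, a phosphoglycerate kinase, by 0.17 (SE 0.10). In afb3-1 the smallest p belonged to AT1G11860, at 7.11, 7.06 and 7.12 in KCl and 6.83, 6.16 and 6.19 in KNO3. Its groups did not overlap, as in 17% of all probe sets in either direction. The difference was −0.70 with SE 0.20 (limma, adjusted p = 0.106). Without afb3-1 KNO3 replicate 1 it was −0.92 with an adjusted p of 0.0224. Its r with the average of the 10 genes was 0.166. In KCl, HPR1 differed between genotypes by 0.59 (SE 0.39), SBPASE by 0.40 (SE 0.41), AT1G11860 by 0.37 (SE 0.20) and CHLM by 0.35 (SE 0.21). The response difference was 0.73 (SE 0.41) for ATPC1, 0.53 (SE 0.55) for HPR1 and 0.45 (SE 0.58) for SBPASE.

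**Figure D5:**
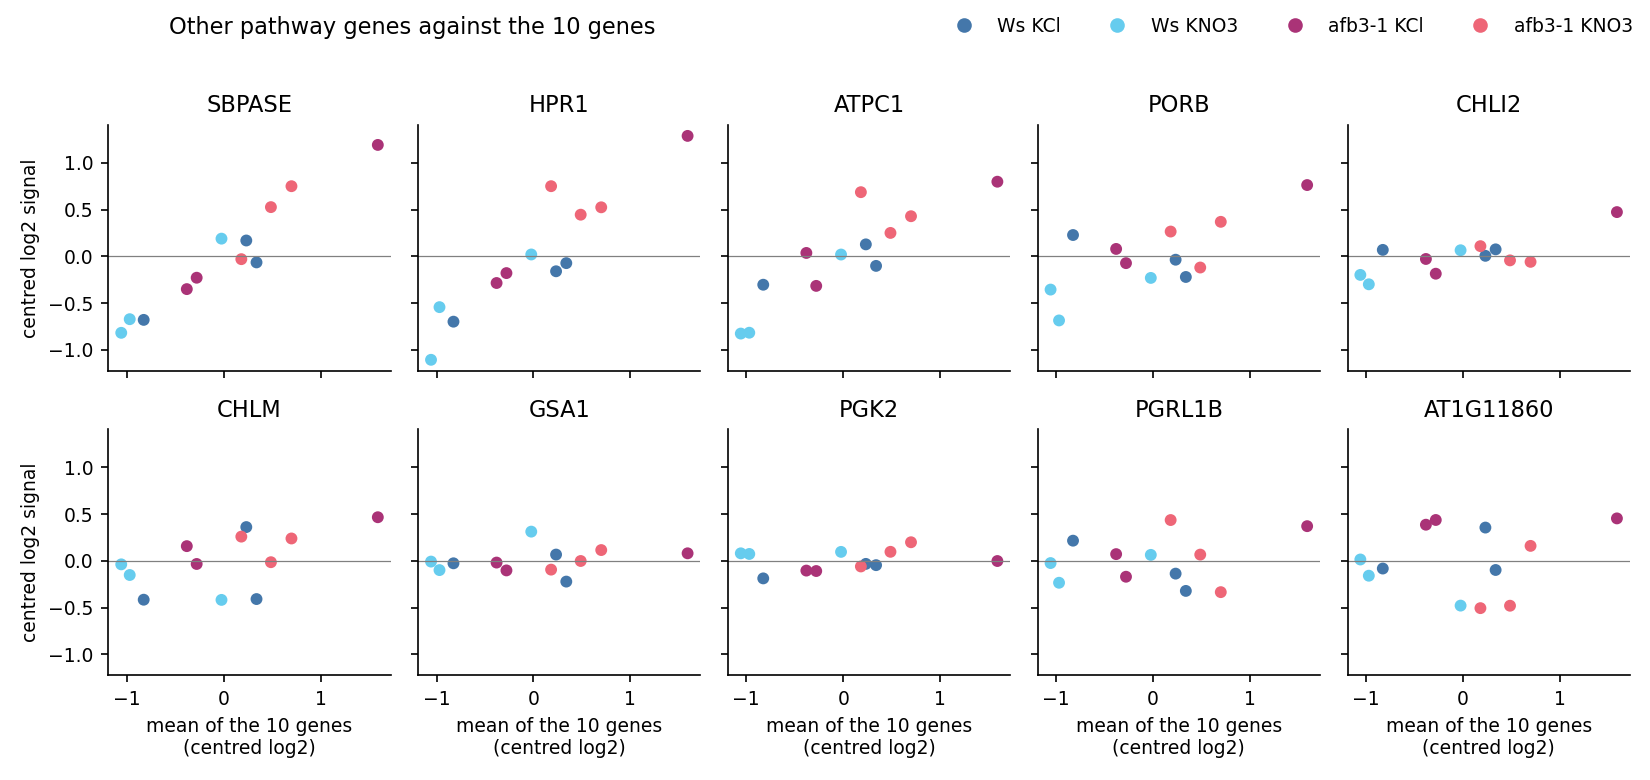
Log2 signal of each of the 10 measured nuclear list genes, centred on its mean over the 12 arrays, against the mean centred log2 signal of the 10 photosynthesis genes, with 1 point per array coloured by group. SBPASE, HPR1 and ATPC1 (r of 0.968, 0.921 and 0.877) run along a diagonal, and PGK2, GSA1, PGRL1B and AT1G11860 do not.

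Genes encoded in the plastid itself were measured for 13 of 13 on the list, and 0 rose and 0 fell in any of the 5 comparisons in limma. As means over the 12 arrays, ndhF (0.96), petD (1.53), psbB (1.62), psaA (2.05) and psbD (2.19) lay below 2.32, the level that 66.7% of probe sets exceeded. The other plastid genes lay above it, and all 13 entered their average. At an unadjusted p under 0.05 there were 2 for genotype in KNO3 (psaB and petA, both higher in afb3-1, against 1.59% of all probe sets), 1 for nitrate in Ws (psaB, against 13.3%) and 0 in the others. Their average did not track the nuclear genes closely, with r = 0.305 and Spearman rho = 0.503 over the 12 arrays and r = −0.02 on deviations from the group means. Single plastid genes differed in this, with r over the 12 arrays from −0.164 (ndhF) to 0.672 (psbA) and a median of 0.114. The plastid average was lowest on Ws KNO3 replicate 3, at −1.01, and highest on afb3-1 KNO3 replicate 1, at 0.53. Replicate 3 of afb3-1 KCl, the top array of the nuclear genes, stood at 0.22. In KNO3 all 13 plastid genes had a higher mean in afb3-1, with a median difference of 0.42. Ws KNO3 replicate 3 was the lowest of the 12 arrays for psbA, psbC, psaA, psaB, petA, petB, atpA, atpB and rbcL. It was not the lowest for psbB, psbD, petD and ndhF. For rbcL the values were 4.09, 4.79 and 2.62 in Ws KNO3 and 4.68, 4.07 and 4.03 in afb3-1 KNO3. How far the plastid differences rest on that array was not tested. The smallest p was that of psaB, a core protein of photosystem I, at 4.99, 5.51 and 3.62 in Ws KNO3 and 6.91, 6.53 and 5.88 in afb3-1 KNO3. The difference was 1.74 with SE 0.59 (limma, unadjusted p = 0.0132, adjusted p = 1.00), and petA, cytochrome f, differed by 0.73 (SE 0.31). Nitrate in Ws gave −1.37 (SE 0.59) for psaB and −0.24 (SE 0.12) for psbB, with adjusted p of at least 0.341 in limma. The response difference was 1.74 (SE 0.84) for psaB and 0.47 (SE 0.24) for psbD, which encodes a core protein of photosystem II. For psbD, nitrate in afb3-1 gave 0.37 (SE 0.17) and genotype in KCl −0.21 (SE 0.17).

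The pattern of the 10 genes was shared by a small set of further probe sets. Of 22736 others, 76 correlated with the average by more than 0.9 over the 12 arrays, 22 of them annotated with a single gene, and the median r was 0.026. The 5 single-gene probe sets most alike were ALDH11A3 (AT2G24270, synonym NP-GAPDH) with r = 0.979, AT4G01150 (synonym CURT1A, for a protein that curves the thylakoid membrane) with 0.973, AT1G51400 with 0.970, AT2G26500 with 0.968 and SBPASE with 0.968. On deviations from the group means the closest were AT3G47650 (0.980), AT1G74730 (0.976), AT2G10940 (0.975), ALDH11A3 (0.973) and AT4G01150 (0.973). All 8 of these genes were highest on afb3-1 KCl replicate 3. They were picked for their likeness to the average, so sharing its top array largely follows from that choice. AT2G26500 ranged as widely as the photosystem I genes, from 3.30 to 7.10, whereas AT1G51400 ranged from 4.05 to 5.37. The afb3-1 minus Ws differences of the 8 genes in KNO3 ran from 0.60 (AT1G51400) to 1.95 (AT2G26500), with an adjusted limma p of 1.00 for each. For the genes picked on log2 values, which hold the group means, this direction was also largely set by the choice. On log2 values 1 probe set ran the other way beyond −0.9, PyrD (AT4G20960), a pyrimidine deaminase, with r = −0.909. On deviations from the group means 109 probe sets, 35 with a single gene, lay above 0.9, and 32, 22 with a single gene, lay below −0.9.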

How the data were processed

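Biotin-labelled cRNA was made from root total RNA with a 3′ IVT kit and hybridized to 12 single-colour Affymetrix arrays, per the labels' protocols. The deposited values are log2 signals per probe set, as read from their range of 0.401 to 12.1. The probe-level correction, normalization and summarization by the authors were not given in the sources used here. Sorted arrays lay within 0.176 of their mean, so no further normalization was applied. A normalization of this kind hides a shift shared by most genes. The 64 control probe sets were left out of the tests, leaving 22746. Of these, 13513 were annotated with 1 gene, 503 with several and the rest with none, and names were updated through the TAIR10.1 RefSeq table. Precision is limited by the number of arrays.

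All arrays entered one limma model with a mean for each group (version 3.58.1, R 4.3.3, lmFit and eBayes, 8 residual and 3.20 prior degrees of freedom). Tests were two-sided, with Benjamini-Hochberg adjustment over the 22746 probe sets of each of 5 comparisons and a threshold of 0.05. The fitting code was tested on simulated data. The 10 genes, the lists and the comparisons were chosen with earlier results of these data known. All 10 genes are named throughout, with the 5 most alike by each of 2 measures. Of each list, genes past the threshold are named, or otherwise genes among the 2 with the smallest p. Further list genes were added to show the range, after their values were seen.

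Within a treatment, deviations from group means correlated by 0.301 to 0.661 between Ws and afb3-1 arrays of one number (6 pairs). The numbers were taken as pairs only for the same-number differences and the block settings, and the main tests did not use them. The labels do not state this pairing, which was read from the data. Across treatments within a genotype the correlations ran from −0.281 to 0.542, so the highest lay inside the range within a treatment. Values for arrays of unlike number are not given, so the pairing remains uncertain. Alternative settings were median centring, quantile normalization, a filter at a mean log2 of 2.32, replicate blocks, a mean-variance trend, a fit to only the groups compared, leaving out each array, and, chosen after seeing the data, leaving out both KCl arrays numbered 3. Promoter sequences were not analysed here.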

Additional observations from a re-analysis of the deposited data

How the results depend on the processing

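No value of the 10 genes passed the threshold under any of the alternatives run: 970 values were recomputed, the smallest adjusted limma p was 0.112, and 43 had the other sign. For nitrate in Ws, 338 probe sets passed with only the groups compared, and 370 to 680 when 1 array was left out. For nitrate in afb3-1 the leave-one-out counts were 380 to 772. Of the list genes, 1 passed in that comparison with the replicate block, AT1G11860 (adjusted p = 0.0426 in limma), and 0 to 1 when 1 array was left out, the same gene without afb3-1 KNO3 replicate 1. For genotype in KNO3, the genes at an unadjusted limma p under 0.05 numbered 8 with the replicate block and 9 with only the groups compared. They numbered 9 without both KCl arrays numbered 3, and 1 to 9 with 1 array left out. The share of all probe sets in those settings is not given, so these counts have no baseline. With the replicate block within treatment there were 9, against 4.16% of all probe sets, where the main fit had 1.59%. The replicate block raised the probe sets past the threshold to 973 for nitrate in Ws and 936 for nitrate in afb3-1, moved none of the 10 genes past it, and left 0 probe sets past it in the other comparisons. Without both KCl arrays numbered 3, signs turned for nitrate in Ws in LHCB4.3 (0.13), for nitrate in afb3-1 in PRK (0.48), LHCB4.2 (0.36), LHCB4.3 (0.046) and PSBY (0.67), and for genotype in KCl in PRK (−0.034), LHCB4.1 (−0.16), LHCB4.2 (−0.21), PSAN (−0.39) and PSAE-1 (−0.25). The nitrate difference of PSBY in afb3-1 turned to 0.010 with quantile normalization and 0.025 with median centring, and the response difference of LHCB4.3 to 0.0065 with median centring. With 1 array left out, the ranges that crossed 0 were, for nitrate in Ws, −0.55 to 0.13 (LHCB4.3), and for nitrate in afb3-1, −0.44 to 0.48 (PRK), −0.17 to 0.83 (LHCB4.1), −0.67 to 0.36 (LHCB4.2), −0.55 to 0.046 (LHCB4.3), −0.36 to 0.67 (PSBY), −0.059 to 1.01 (PSBW) and −0.13 to 0.95 (PSB27). They were −0.44 to 0.31 for the response difference of LHCB4.3. For genotype in KCl they were −0.34 to 0.67 (LHCB4.1), −0.37 to 0.66 (LHCB4.2), −0.10 to 0.65 (LHCB4.3), −0.35 to 0.73 (PSBW), −0.15 to 0.93 (PSB27), −0.77 to 0.62 (PSAN) and −0.51 to 0.84 (PSAE-1). Leaving out afb3-1 KCl replicate 3, an array outside the KNO3 genotype comparison, left the median difference there at 1.15. The median within-group SD of the 10 genes fell from 0.69 to 0.46, and the genes at an unadjusted limma p under 0.05 rose from 5 to 9. That count thus changed through the estimate of the spread shared by all groups. The cause of the other changes was not tested. With 3 arrays per group, 95% intervals reached a median of 1.06 to either side of a gene's difference, and 1.5 for the response difference.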
